A study of Homo sapiens with 6 samples.

Results

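The 2 sequencing libraries that carry the label BOR, of 6 libraries in the whole series, were set against each other. They are called BOR 1 and BOR 2 here, numbered in accession order. The 2 untreated libraries of the same table, untreated 1 and untreated 2, served as the reference for how far a pair of equally labelled libraries can stand apart. Genes entered the comparison when their mean over these 4 libraries was at least 10, which kept 15382 of the 25405 genes in the table. The cells were SKM-1 throughout, a human leukaemia cell line of the acute myeloid type, taken from disease that had followed myelodysplasia. The untreated cells received no compound, and the BOR cells received an agent given in the labels under that abbreviation alone. The remaining 2 libraries were 1 from cells given VEM (vemurafenib, a RAF kinase inhibitor) and 1 from cells given VEM+BOR. The sources used here give neither dose nor time, and do not say whether equally labelled libraries were grown apart.

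Values are normalised read counts, that is, reads assigned to a gene multiplied by 1 factor per library. A difference is always BOR 2 minus BOR 1 (or untreated 2 minus untreated 1) in log2(normalised read count + 1), so that 1 is a 2-fold difference. Because 1 library stood against 1, no test was possible, values carry no replicate SD (an SD below is a spread over genes), and "higher" and "lower" below describe these libraries and not the compound.

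A leukaemia cell holds several transcript programs that shift together. Immediate early genes such as FOS, JUN and EGR1 encode transcription factors made within minutes of a signal. Oxygen shortage stabilises the HIF transcription factors, which switch on glucose transporters, glycolytic enzymes and angiogenic peptides, and the factor ATF4 drives the integrated stress response when amino acids run short or proteins misfold. Dividing cells add a program of mitotic genes. Transcripts also differ in base composition, since the share of G and C letters, the GC content, varies widely between genes.

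Depth was alike in the 4 libraries, with 17371022 to 18507606 reads assigned to genes. The value of 1 read after normalisation was 0.851 in untreated 1, 0.951 in untreated 2, 0.895 in BOR 1 and 1.31 in BOR 2, so the summed normalised values were 24169000 for BOR 2 and 14785000 to 17148100 for the rest. BOR 2 had a read in 20655 genes, against 21839 to 23115 elsewhere. The labelled cell type was borne out in both BOR libraries. All 12 myeloid markers examined had a mean of at least 10, and their sum was 125352 for BOR 1, 157068 for BOR 2 and 117583 and 137149 for the untreated libraries. Markers of other cell types were mostly scarce, apart from the plasma cell marker SDC1. The T cell markers in the table, 2 of 8, summed to 13.4 in BOR 1 and 47.0 in BOR 2, and the epithelial ones, 3 of 8, to 13.4 and 53.5, with KRT8 at 0 in both and KRT7 at 3.58 and 48.3. B cell (276 and 240), erythroid (111 and 206), megakaryocyte (150 and 82.3) and fibroblast and endothelial markers (84.1 and 101) had sums that were no more than 2-fold apart, and plasma cell markers summed to 2371 and 1204. Nearly all of the plasma cell sum was SDC1, at 1970 and 1728 in the untreated libraries, 2362 in BOR 1 and 1190 in BOR 2. The part of these markers in the differences below was not tested.

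The BOR libraries stood much further apart than the untreated ones. Between BOR 1 and BOR 2, 2788 genes were at least 2-fold higher in BOR 2 (18.1% of those compared) and 4090 were at least 2-fold lower (26.6%). Between the untreated libraries, handled in the same way, 402 genes (2.61%) were higher in untreated 2 and 1316 (8.56%) were lower. The SD of the difference over genes was 1.53 for the BOR pair and 0.68 for the untreated pair. At 8-fold and beyond, the BOR pair had 234 higher and 777 lower genes, and the untreated pair 5 and 36. With reads scaled only to the library total (CPM), the median difference of the BOR pair moved from 0.03 to -0.59, and the split became 1024 higher and 6019 lower, or 14.5% higher in place of 40.5%. Where the sign of the median of a whole list below depended on this choice, the CPM value stands beside it. Medians of GC and length groups, parts of lists, gene classes and chromosomes carry no CPM value. The sign of small ones could depend on the scaling.

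**Figure D1:**
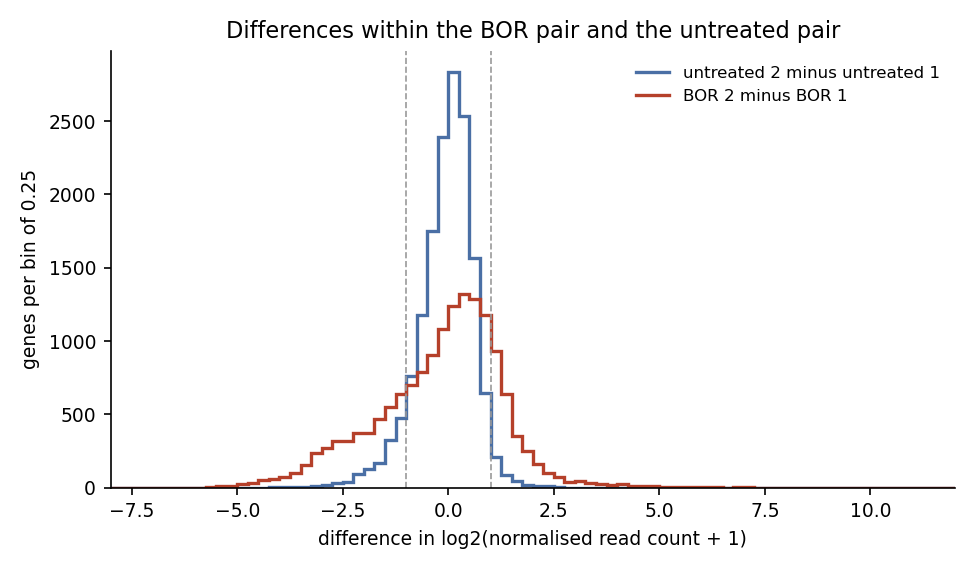
Number of genes (vertical axis, bins of 0.25) by difference in log2(normalised read count + 1) (horizontal axis) for the BOR pair (red) and the untreated pair (blue), over 15382 genes, with dashed lines at 2-fold. The BOR pair spreads wider (SD 1.53 against 0.68) with a long tail on the lower side.

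The divergence lay in BOR 2. Against the mean of the untreated libraries, BOR 1 had 193 genes at least 2-fold higher (1.25%) and 207 at least 2-fold lower (1.35%). BOR 2 had 2571 higher (16.7%) and 3880 lower (25.2%). Taking distance from the nearer untreated library, BOR 2 alone lay 2-fold or more away in 4919 genes, BOR 1 alone in 72 and both in 73, of which 54 lay on the same side. BOR 2 was above the other 3 libraries in 6564 genes (42.7%) and below them in 6145 (39.9%). Of the 6878 genes past 2-fold between the BOR libraries, BOR 1 was inside the range of the untreated libraries in 3129. With VEM and VEM+BOR brought to the same scale, over the 15376 genes found in all tables, BOR 2 was above all 5 other libraries in 6135 and below all 5 in 5714.

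The gene with the widest gap was ADM (ENSG00000148926, chromosome 11, 10304680 to 10307397), which encodes the vasodilator peptide adrenomedullin. It stood at 2.55 and 4.76 in the untreated libraries, 0.895 (1 read) in BOR 1 and 3702 (2835 reads) in BOR 2. The ratio of BOR 2 to BOR 1 was 4136, with a 95% exact binomial interval of 742 to 163426 that covers counting error only. The neighbouring genes HCAR2 and HCAR3 on chromosome 12, receptors for hydroxycarboxylic acids such as ketone bodies, were at 0 in BOR 1 and at 924.6 and 416.6 in BOR 2. Set against a floor of 3 reads in BOR 1, these were at least 344-fold and at least 155-fold higher. HCAR2 and HCAR3 are near-identical copies, so the split of reads between them is uncertain. In the untreated libraries HCAR2 had 0 and 1 reads and HCAR3 had 0 in both.

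Of the 12 highest protein-coding genes, 6 belonged to the hypoxia, immediate early or glycolysis lists described next. Among the others, NUPR1 was a member of the integrated stress response list described below. ARC, an activity-induced cytoskeletal gene, was 43.4 and 13.3 in the untreated libraries, 33.1 in BOR 1 and 11188 in BOR 2, a difference of 8.36. NUPR1, a stress-induced chromatin protein gene, had 1 read in BOR 1 (0.895) and 355 in BOR 2 (463.6), a ratio of 518 with an interval of 92.4 to 20514. ARG1, the arginine-degrading enzyme arginase, was 1.70 and 35.2 in the untreated libraries, 16.1 in BOR 1 and 2348 in BOR 2. In ARG1 the untreated libraries themselves differed by 3.74, against 7.10 for the BOR pair. JPH2, which encodes a membrane junction protein best known from heart muscle, was 5.37 in BOR 1 and 1183 in BOR 2, with 10.2 and 10.5 in the untreated libraries. Genes were named here only where BOR 2 lay outside the other 3 libraries, so that BOR 2 stood alone in them follows from their choice.

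Genes that oxygen shortage induces were higher in BOR 2 almost without exception. A list of such genes, put together after these values had been seen, had 29 members with a mean of at least 10. Of these, 27 were at least 2-fold higher in BOR 2 and 0 lower, against 18.1% and 26.6% of all genes, and all 29 were above the other 3 libraries. The median difference was 2.95, against 0.03 over all genes and -0.01 for the same members in the untreated pair. PFKFB4 (ENSG00000114268, chromosome 3, 48517684 to 48562015), a bifunctional enzyme that sets the glycolytic activator fructose 2,6-bisphosphate, was 334.5 and 211.1 in the untreated libraries, 192.4 in BOR 1 and 28005 in BOR 2. DDIT4, an inhibitor of mTORC1 signalling, was 184.7, 143.6, 181.7 and 22502 in the same order, a ratio of 124 (interval 108 to 143). SLC2A3, a glucose transporter gene, was 257.0, 283.4, 273.0 and 21627. The 2 members that stayed under 2-fold were ERO1A at 0.72 and LOX at 0.92. VEGFA, the angiogenic factor named here after its values were seen, was 1455, 1497, 1823 and 17798.

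The regulators of the oxygen response did not share this pattern. In a list of 6, also made after the values were seen, 0 were at least 2-fold higher and 1 was lower. Over all genes 18.1% were higher and 26.6% lower, so these counts do not set the 6 apart from genes as a whole. Their median was -0.14 (-0.36 in the untreated pair). The lower member was HIF1A, the oxygen-regulated subunit itself, at 1285 and 1007 in the untreated libraries, 1418 in BOR 1 and 114.9 in BOR 2. Its transcripts had a GC content of 38.9%. HIF proteins are controlled largely after translation, so a transcript level is no measure of their activity.

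Glycolytic genes followed the same direction. Of 24 members, 21 were at least 2-fold higher in BOR 2 and 0 lower, with a median difference of 2.39 (0.22 in the untreated pair). PGK1, which encodes phosphoglycerate kinase, was 13715 and 17953 in the untreated libraries, 14892 in BOR 1 and 108521 in BOR 2. GAPDH was 29393, 42475, 29824 and 124747. ENO2 and ALDOC, the enolase and aldolase isoforms best known from neurons, differed by 4.17 and 4.06. As a share of all reads, the glycolysis list took 1.19% in BOR 1 and 4.29% in BOR 2, with 1.19% and 1.44% in the untreated libraries. The 3 members short of 2-fold were the lactate transporter gene SLC16A1 (-0.23), the muscle phosphofructokinase gene PFKM (0.27) and LDHB (0.35). The glycolysis and hypoxia lists have 5 genes in common (PFKFB4, PFKFB3, SLC2A3, SLC2A1 and PDK1) and cannot be read as independent.

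**Figure D2:**
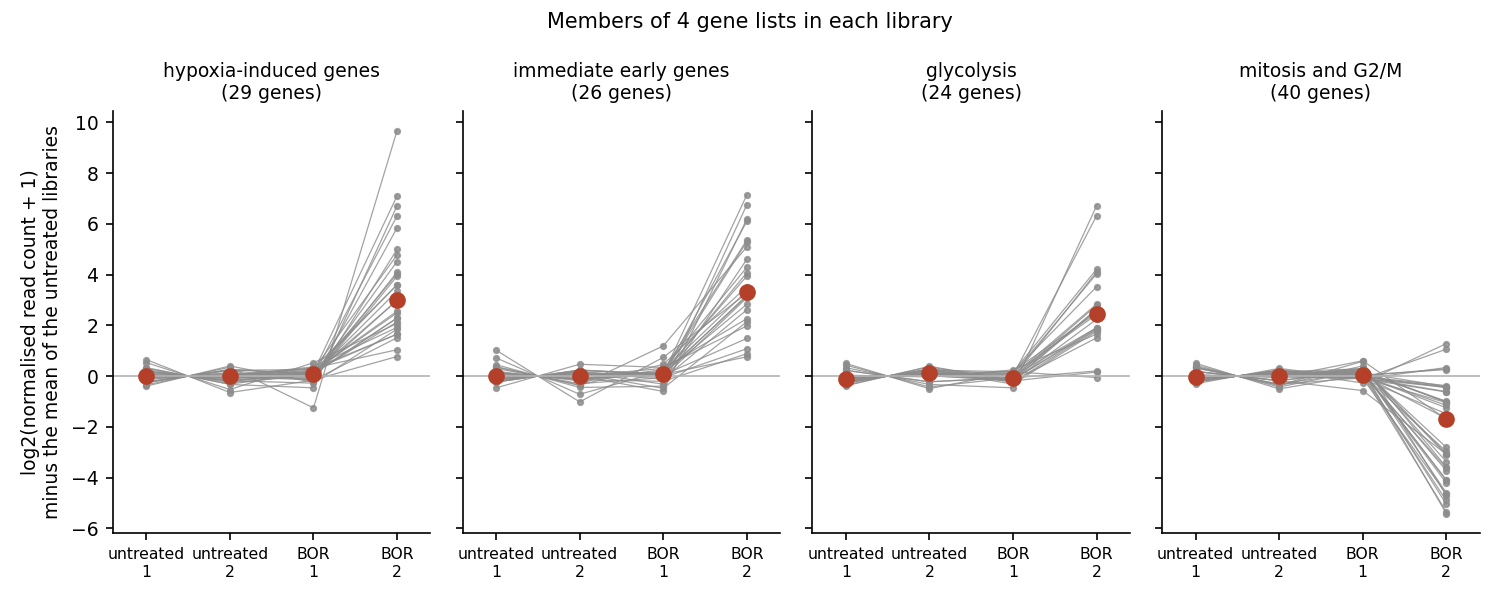
Each line is 1 gene of a list, drawn as log2(normalised read count + 1) minus the mean of the untreated libraries (vertical axis) in each of the 4 libraries (horizontal axis), and red points are list medians. BOR 1 stays near 0 in all 4 lists, while the members of the first 3 lists climb in BOR 2 and most members of the mitosis list drop.

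The promoter of DDIT4 is shown because this gene was among the highest of the list and its window holds the hypoxia response core. It is RefSeq sequence on GRCh38.p14, chr10:72273674-72273973, plus strand, from 250 bases before to 50 bases after the annotated start, with the ACGTG core in capitals.
DDIT4: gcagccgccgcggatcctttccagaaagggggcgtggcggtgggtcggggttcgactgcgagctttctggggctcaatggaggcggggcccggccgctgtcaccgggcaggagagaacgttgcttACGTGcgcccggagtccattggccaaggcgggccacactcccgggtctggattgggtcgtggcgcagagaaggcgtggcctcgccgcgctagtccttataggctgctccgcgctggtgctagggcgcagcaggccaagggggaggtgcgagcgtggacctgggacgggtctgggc
The core ACGTG, searched on both strands and also part of the CACGTG box, was found in the promoter window of 15 of the 24 hypoxia-list genes with a RefSeq entry (62.5%). It was found in 32.3% of the 10550 genes of the comparison with an entry and in 24.9% of all 27305 promoters in the table. The core was also found in 42.9% of 21 immediate early genes and in 40.0% of 35 mitosis genes, a list mostly lower in BOR 2. A match describes the letters only and is not evidence that a factor bound there.

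Immediate early genes had the highest list median. Of 26 members, 25 were at least 2-fold higher in BOR 2 and 0 lower, all 26 were above the other 3 libraries, and the median difference was 3.14 against 0.00 in the untreated pair. EGR1 (ENSG00000120738, chromosome 5, 138465490 to 138469315), a zinc finger transcription factor gene, was 195.8 and 104.6 in the untreated libraries, 108.3 in BOR 1 and 15539 in BOR 2. ATF3, a stress-induced factor, was 39.2, 54.2, 48.3 and 6646. FOS, a subunit of the AP-1 factor, was 42.6, 42.8, 27.7 and 3175, and its partner JUN was 637.5, 650.5, 655.2 and 44275. BOR 2 was 143-fold above BOR 1 in EGR1, 137-fold in ATF3 and 114-fold in FOS, and in all 4 genes it stood far outside the other 3 libraries. The list took 0.112% of reads in BOR 1 and 0.655% in BOR 2. SRF, which encodes the factor that binds many of these promoters, was the member short of 2-fold, at 0.70.

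The EGR1 promoter carries 2 copies of the CArG box, the site that serum response factor recognises, and is shown for that reason. It is RefSeq sequence on GRCh38.p14, chr5:138465229-138465528, plus strand, with both boxes in capitals.
EGR1: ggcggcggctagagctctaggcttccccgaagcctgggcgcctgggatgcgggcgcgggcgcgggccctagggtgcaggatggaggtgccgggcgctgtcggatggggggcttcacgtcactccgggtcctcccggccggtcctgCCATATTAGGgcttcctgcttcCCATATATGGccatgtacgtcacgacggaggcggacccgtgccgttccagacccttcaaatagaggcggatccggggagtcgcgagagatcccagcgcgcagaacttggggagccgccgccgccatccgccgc
A CArG box on either strand was found in 3 of 21 immediate early genes with a RefSeq window (14.3%), against 1.56% of the genes of the comparison. With so short a window, genes without a match may carry the box elsewhere.

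Genes downstream of the MAPK pathway and of NF-kB were also mostly higher. Of 18 MAPK output genes, 12 were at least 2-fold higher in BOR 2 and 0 lower, with a median of 1.55 (0.10 in the untreated pair). PHLDA1 was 21.3 and 24.7 in the untreated libraries, 42.1 in BOR 1 and 511.9 in BOR 2, and the phosphatase gene DUSP5 was 358.3, 346.2, 385.8 and 2385. EGR1, IER3 and FOSL1 are members of both this list and the immediate early list. Of 27 NF-kB targets, 19 were higher and 2 lower, with a median of 1.80. CXCL8, the neutrophil chemokine, was 910.7 and 3022 in the untreated libraries, 2334 in BOR 1 and 43912 in BOR 2. The prostaglandin synthase gene PTGS2 was 57.9, 62.8, 68.9 and 965.1. CCL4 and CCL3 differed by 4.77 and 3.51, but near-identical copies of both exist and their reads cannot be told apart with certainty. CXCL8 also differed between the untreated libraries, by 1.73. The lower members were BIRC3 at -2.70 and REL at -2.23, and REL also differed between the untreated libraries (291.1 and 78.9).

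Stress response genes were mostly higher in BOR 2 in the branch run by ATF4. In the branch of the endoplasmic reticulum this held mainly for members of higher GC content. Of 32 integrated stress response genes, 24 were at least 2-fold higher and 1, the amino acid transporter gene SLC38A2 at -1.34, was lower, with a median of 1.93 (0.26 in the untreated pair). PPP1R15A, which encodes the phosphatase subunit GADD34, was 106.4 and 163.6 in the untreated libraries, 148.6 in BOR 1 and 4548 in BOR 2. NUPR1, ATF3 and DDIT4, described above, are members as well. Of 34 unfolded protein response genes, 18 were higher and 5 lower. Their median was 1.12 (0.36 in the untreated pair), and 1.02 with GC content and length removed. The 17 of lower GC content (39.5% to 46.6%) had 4 higher and 5 lower and a median of 0.13 (0.38 in the untreated pair). Groups of all genes between 40.0% and 47.0% GC had lower medians, of -1.40, -0.58 and -0.21. The 17 of higher GC content had 14 higher, 0 lower and a median of 1.47 (0.31 in the untreated pair). ERN1, the sensor IRE1, was 207.7, 147.4, 160.2 and 1013, and HERPUD1, of the degradation machinery, was 1718, 1841, 3132 and 16217. The chaperone gene HSP90B1 went the other way, at 10442 and 13726 in the untreated libraries, 15728 in BOR 1 and 2527 in BOR 2.

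On the normalised scale, cholesterol synthesis genes were higher in BOR 2 throughout. The smallest member difference was 0.17, and CPM moved the median of all genes from 0.03 to -0.59. The sign of such small differences could therefore depend on the scaling. All 24 members were above the other 3 libraries, 14 were at least 2-fold above BOR 1 and 0 below, and the median difference was 1.32, where the untreated pair had -0.39. MVK, an early enzyme of the pathway, was 412.8 and 265.3 in the untreated libraries, 407.3 in BOR 1 and 2370 in BOR 2. BOR 1 was itself slightly above the untreated mean over this list, with a median of 0.34, and BOR 2 had a median of 1.59.

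Cytosolic ribosomal protein genes were higher in BOR 2 in nearly every member. Of 79 genes, 69 were at least 2-fold higher and 0 lower, and the median difference was 1.44. The untreated pair differed in the same direction by 0.52. RPS29 was 4582 and 5149 in the untreated libraries, 3027 in BOR 1 and 14654 in BOR 2, and RPL13A was 22048, 32106, 17538 and 64697. Their share of all reads was 6.68% in BOR 1, 7.58% and 9.41% in the untreated libraries and 11.9% in BOR 2. With CPM the list median was 0.83. The nuclear-encoded subunits of the respiratory chain had a median of 1.06 (0.42 in the untreated pair). Of 74, 43 were at least 2-fold higher and 1 lower. The snoRNA host genes, whose introns give rise to small nucleolar RNAs, had a median of 1.26 (0.75 in the untreated pair). Of 22, 13 were higher and 1 lower. Over all genes, 18.1% were higher and 26.6% lower. In the highest of 10 equal groups by mean value, 36.8% were higher and 8.45% lower, with a median of 0.76. A list of 16 housekeeping genes had 8 higher, 1 lower and a median of 0.95 (0.35 in the untreated pair). Genes encoded in mitochondrial DNA did not follow, with 0 of 13 at least 2-fold higher, 1 lower and a median of -0.18 (0.12 with GC content and length removed). They took 4.56% of the reads of BOR 1 and 3.14% of those of BOR 2, where the untreated libraries had 5.40% and 5.26%.

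Mitotic genes were mostly lower in BOR 2. Of 40 genes of mitosis and G2/M, 27 were at least 2-fold lower in BOR 2 and 2 higher, with a median difference of -2.003 against 0.04 in the untreated pair. CENPE (ENSG00000138778, chromosome 4, 103105806 to 103198409), a kinetochore motor gene, was 1266 and 696.1 in the untreated libraries, 1101 in BOR 1 and 20.9 in BOR 2. HMMR (ENSG00000072571, chromosome 5, 163460203 to 163491945), a spindle assembly gene, was 1353, 1390, 1401 and 32.6. ASPM, which acts at spindle poles, was 1696, 1035, 1981 and 49.6, and TOP2A, the topoisomerase that untangles chromosomes, was 11570, 7494, 10417 and 279.5. BOR 1 lay within or above the range of the untreated libraries in these genes, and BOR 2 was 52.7-fold below BOR 1 in CENPE, 42.9-fold in HMMR and 39.9-fold in ASPM. The list took 0.491% of reads in BOR 1 and 0.130% in BOR 2. In bulk RNA, fewer dividing cells and less of these transcripts per cell cannot be told apart.

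The list was not uniform, and its members divided by base composition. The 20 members with the lower GC content (35.5% to 42.5%) were all at least 2-fold lower, with a median of -4.13. Of the 20 with the higher GC content (43.6% to 58.2%), 7 were at least 2-fold lower and 2 higher, with a median of -0.53. Named here after their values were seen, the kinase genes AURKB and PLK1 (GC content 56.1% and 57.2%) differed by -0.54 and -0.53, KIF2C (49.8%) by 1.17 and UBE2C (51.5%), whose product drives mitotic exit, by 1.55. UBE2C was 37.4 and 50.4 in the untreated libraries, 35.8 in BOR 1 and 107.1 in BOR 2. KIF2C and UBE2C were the 2 members at least 2-fold higher, while 35 of the 40 lay below the other 3 libraries and 5 above. With GC content and length removed, the list median was -1.52. The rank correlation between GC content and difference over these 40 genes was 0.81, given as a description, since genes are not independent replicates. The sequence TTTGAA, the cell cycle homology region of many mitotic promoters, was found on either strand in 26 of 35 members with a RefSeq window (74.3%), against 13.5% of the genes of the comparison.

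DNA replication genes were mixed. Of 41 members, 18 were at least 2-fold higher in BOR 2 and 4 lower, with a median of 0.91 (0.30 with CPM). The 20 of lower GC content had 3 higher and 4 lower and a median of 0.27, and the 21 of higher GC content had 15 higher, 0 lower and a median of 1.31. CDT1 and E2F1, a replication licensing factor and a G1/S transcription factor, were 2015 and 1608 in BOR 1 and 13308 and 9598 in BOR 2. POLA1, the catalytic subunit of polymerase alpha, was 584.5 in BOR 1 and 94.0 in BOR 2. Again the GC content differed, at 65.2% and 62.5% for the former pair and 42.7% for POLA1. Among cell cycle inhibitors, CDKN1C was 68.1 and 22.8 in the untreated libraries, 39.4 in BOR 1 and 2146 in BOR 2, and CDKN1A, which encodes p21, was 827.3, 345.2, 629.2 and 9150. Of the 11 members of that list 4 were at least 2-fold higher and 4 lower, the latter including the pocket protein genes RBL2 (-2.88) and RBL1 (-2.82).

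The 12 lowest protein-coding genes named here were taken from those with a mean of at least 100 and BOR 2 outside the other 3 libraries, and included genes with no place in the mitosis list. SAMD9L, an interferon-inducible growth regulator, was 360.9 and 134.1 in the untreated libraries, 292.7 (327 reads) in BOR 1 and 1.31 (1 read) in BOR 2. The ratio of BOR 1 to BOR 2 was 224, with a counting interval of 39.9 to 8879. Its neighbour SAMD9 was 506.4, 284.4, 452.0 and 10.4. TEX15, a meiosis gene, was 989.0, 511.6, 1003 and 9.14. EPM2AIP1 had 192 reads in BOR 1 and 1 in BOR 2 (ratio 132, interval 23.3 to 5225), and CEP290, a centrosome and cilium gene, had 153 and 2 (ratio 52.4, interval 14.3 to 436.9). The other genes among the 12 lowest were SLC26A2, a sulphate transporter gene, OTUD6B, DEPDC1 and LIG4, the DNA ligase of end joining, with differences between -5.45 and -5.24. Base composition and length were not used in choosing these 12. Their GC content ran from 34.7% to 40.5% with a median of 35.9%, against a median of 49.7% over all genes and of 55.6% over the 12 highest. Their lengths in exon sequence ran from 3936 to 11864 bases with a median of 7631, against 4557 over all genes and 3065 over the 12 highest.

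Further lists with low GC content lay low as a whole. Of 118 KRAB zinc finger genes, a family of transcriptional repressors, 94 were at least 2-fold lower in BOR 2 and 1 higher, with a median of -1.74 at a median GC content of 42.4%. ZNF302 was 286.8 and 280.6 in the untreated libraries, 330.3 in BOR 1 and 17.0 in BOR 2. Of 9 RNAs that stay in the nucleus or lack a protein product, 7 were lower and 0 higher, with a median of -2.31 at 41.8% GC. MALAT1 was 1294, 831.2, 1331 and 199.8, and TUG1 was 1872, 1506, 1977 and 207.6. Once GC content and length were removed, as described next, the medians of the zinc finger and nuclear RNA lists shrank to -0.69 and -0.61.

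GC content ordered the divergence of the BOR pair across the transcriptome. When the 15375 genes with transcripts of known sequence were placed in 10 equal groups by GC content, the median difference in the lowest group (23.1% to 40.0% GC) was -2.13. In that group 76.4% of genes were at least 2-fold lower in BOR 2 and 1.17% higher. The medians of the next groups were -1.40, -0.58, -0.21, 0.20 and 0.38, and from the group at 52.6% GC upward they levelled off between 0.52 and 0.53. In the untreated pair the medians of the same groups stayed between -0.02 and 0.15. The rank correlation between GC content and difference was 0.51 for the BOR pair and 0.01 for the untreated pair, over genes that share 1 library on each side. The mean GC content of reads, each read taking that of its gene, was 52.8% for BOR 2 and 50.4% to 50.8% for the rest. With the GC content of coding sequence alone or of codon position 3 the rank correlation was 0.52 for each, over 12759 genes.

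**Figure D3:**
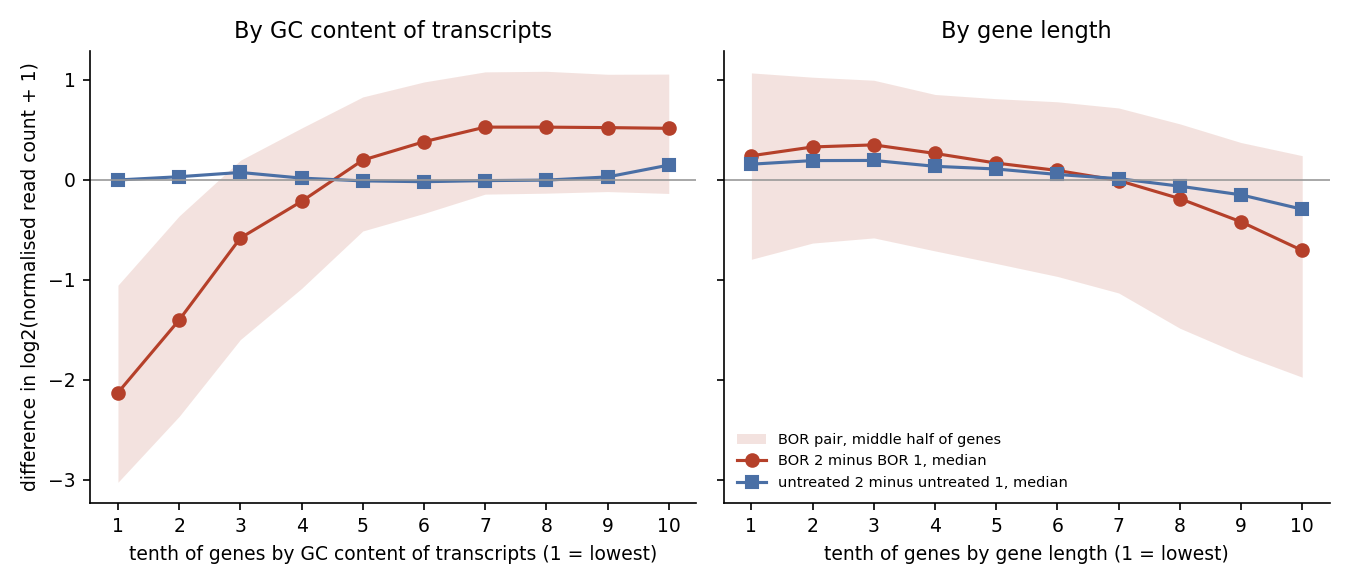
Median difference in log2(normalised read count + 1) (vertical axis) in 10 equal groups of genes by GC content (left) and by length (right), for the BOR pair (red, with the interquartile range shaded) and the untreated pair (blue). The BOR medians climb from -2.13 to 0.52 with GC content while the untreated ones stay between -0.02 and 0.15, and with length both pairs decline.

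Stretches of coding sequence show what this contrast looks like at the level of letters. Each is a 120-base window inside 1 coding exon of the longest coding sequence of the gene (GENCODE 29, GRCh38), picked because its GC content is nearest to that of the whole coding sequence, with G and C in capitals. HMMR (chr5:163469702-163469821, plus strand, 36.7% GC) and CENPE (chr4:103161092-103161211, minus strand, 35.0%) stand for the named genes low in BOR 2. PFKFB4 (chr3:48536330-48536449, minus strand, 55.8%) and EGR1 (chr5:138465796-138465915, plus strand, 62.5%) stand for named genes high in BOR 2, and SLC2A3 (chr12:7933023-7933142, minus strand, 50%) for a high gene of middling composition.
HMMR: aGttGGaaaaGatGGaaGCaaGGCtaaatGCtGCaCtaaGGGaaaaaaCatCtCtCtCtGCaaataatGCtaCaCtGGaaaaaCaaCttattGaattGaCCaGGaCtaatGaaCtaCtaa
CENPE: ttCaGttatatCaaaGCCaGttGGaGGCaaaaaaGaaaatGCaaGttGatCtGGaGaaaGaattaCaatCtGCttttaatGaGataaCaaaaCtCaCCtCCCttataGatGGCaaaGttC
PFKFB4: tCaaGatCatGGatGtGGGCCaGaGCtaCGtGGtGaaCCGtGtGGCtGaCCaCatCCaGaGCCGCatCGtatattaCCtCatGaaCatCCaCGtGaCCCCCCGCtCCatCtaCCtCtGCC
EGR1: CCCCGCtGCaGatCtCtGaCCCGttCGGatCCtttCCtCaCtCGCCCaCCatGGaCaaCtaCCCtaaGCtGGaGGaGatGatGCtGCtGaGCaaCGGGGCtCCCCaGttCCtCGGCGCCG
SLC2A3: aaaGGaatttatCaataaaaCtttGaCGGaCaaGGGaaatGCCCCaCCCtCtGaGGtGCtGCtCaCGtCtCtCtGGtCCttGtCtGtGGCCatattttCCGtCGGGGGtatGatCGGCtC
SLC2A3 was 6.30 higher in BOR 2 with a transcript GC content of 46.6%, so its difference was not that of its GC group, whose median was -0.21.

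Length went with the difference as well, but in both pairs. The rank correlation with length was -0.22 for the BOR pair and -0.23 for the untreated pair. The shortest and longest of 10 equal groups had medians of 0.24 and -0.71 in the BOR pair and of 0.16 and -0.29 in the untreated pair. Within the genes of lowest GC content (23.1% to 45.3%), the longest group minus the shortest gave -1.45 in the BOR pair and -0.62 in the untreated pair. Within the genes of highest GC content (54.6% to 79.8%) the same subtraction gave 0.066 in the BOR pair and -0.22 in the untreated pair. GC content kept its order within every length class, with the top GC group 1.51 above the bottom one among short genes, 2.52 among intermediate and 2.93 among long ones.

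Smooth curves in GC content and log2 length, fitted together over genes, took up 32.5% of the variance of the BOR difference and 5.17% of that of the untreated difference. What they left had an SD of 1.26, with 2571 genes at least 2-fold higher and 2842 lower. Medians after removal were 3.37 for the hypoxia-induced list, 2.61 for immediate early genes, 2.09 for glycolysis, 2.05 for the integrated stress response, 1.48 for cholesterol synthesis and 1.13 for cytosolic ribosomal proteins. Mitotic genes had -1.52 left. HIF1A went from -3.61 to -1.86, CENPE from -5.65 to -2.95 and HMMR from -5.38 to -3.45. INSIG2 and P4HA1, hypoxia-list genes with GC contents of 37.3% and 40.2% named after their values were seen, went from 2.22 to 4.21 and from 3.28 to 4.62. The part of base composition in the differences of these lists was not tested beyond this removal.

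**Figure D4:**
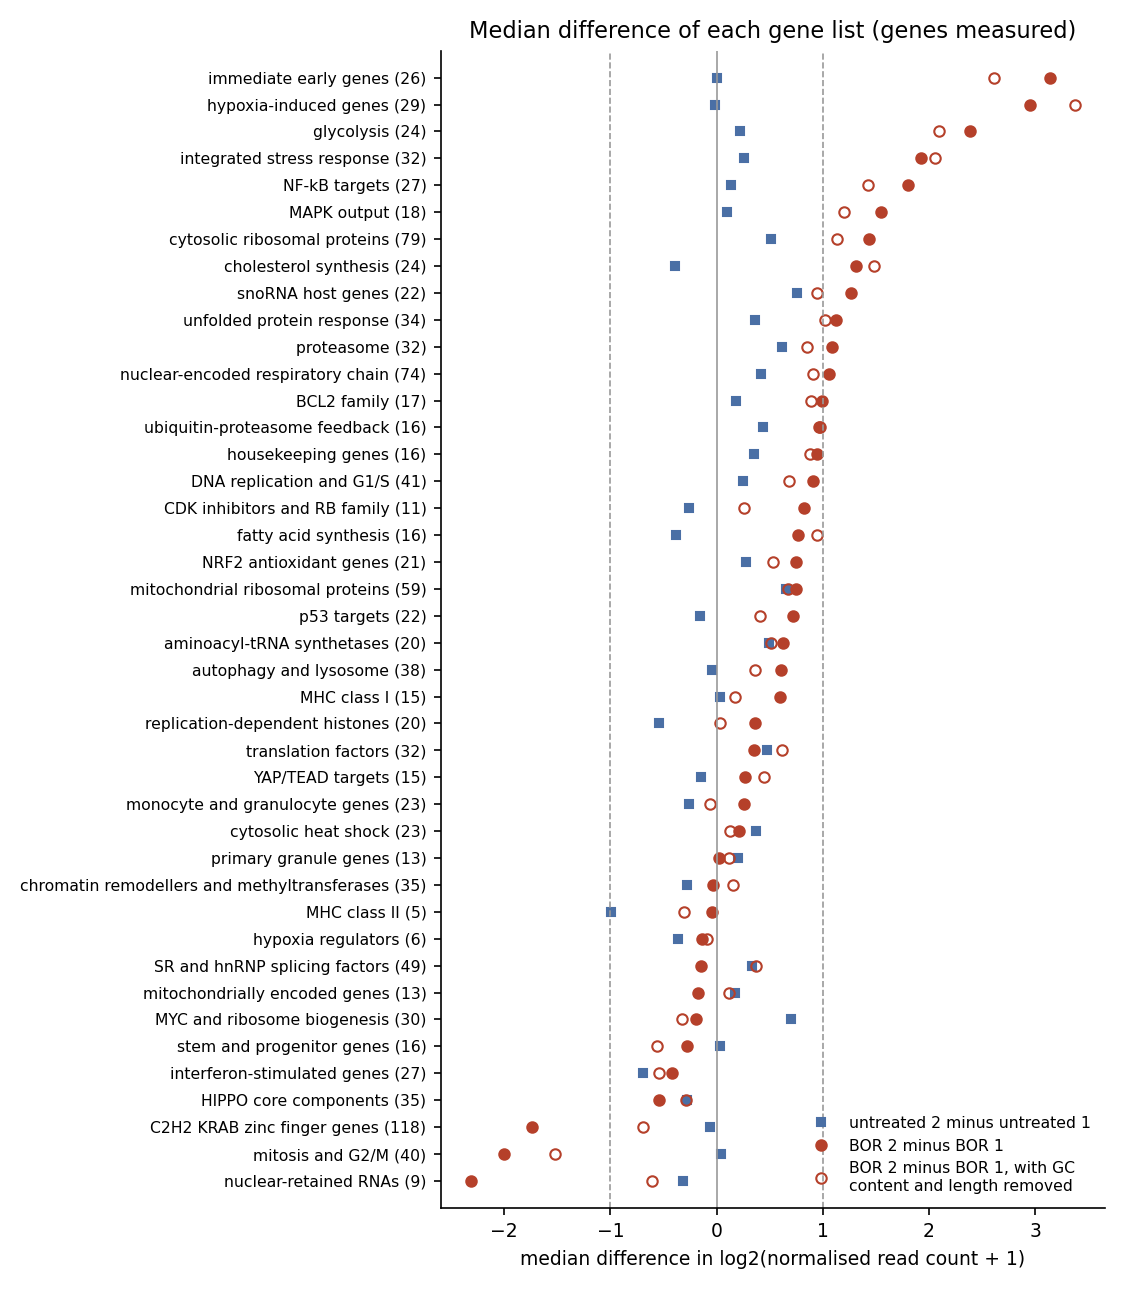
Median difference in log2(normalised read count + 1) (horizontal axis) of 42 gene lists (vertical axis, with the number of genes measured) for the BOR pair (filled red), the BOR pair with GC content and length removed (open red) and the untreated pair (blue). Immediate early (3.14) and hypoxia-induced genes (2.95) lie highest and nuclear-retained RNAs (-2.31) lowest, while the untreated medians stay within 1 of 0.

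Splitting each list at its own median GC content, a step added after the data were seen, showed an internal order in some lists. Cytosolic heat shock genes, many of them targets of the factor HSF1, had a median of only 0.21 (-0.40 with CPM). The 11 members of lower GC content had a median of -1.81, with 8 at least 2-fold lower, and the 12 of higher GC content a median of 0.79, with 3 higher. HSP90AA1, the inducible HSP90 gene, was 18945 and 24359 in the untreated libraries, 17768 in BOR 1 and 1875 in BOR 2, while HSPA6, named after its values were seen, was 40.9, 42.8, 36.7 and 177.6. Proteasome subunit genes, with a median of 1.09 (0.61 in the untreated pair), had 15 of the 16 members of higher GC content at least 2-fold higher, and 2 higher and 3 lower among the 16 of lower GC content. PSMC6 was 1427 in BOR 1 and 406.1 in BOR 2, and PSMB4 was 5743 and 16964. Chromatin remodellers and methyltransferases had a median of -0.03 (0.15 with GC content and length removed), made of -1.60 for the 17 of lower and 0.54 for the 18 of higher GC content. Within their own ranges immediate early genes showed no such order, with medians of 3.16 and 3.03 on the lower and higher side. Nor did glycolysis, with 2.54 and 2.07. Their lower sides reached higher GC content (45.7% to 55.4% and 41.6% to 55.7%) than those of heat shock (37.6% to 46.6%) and proteasome genes (36.9% to 47.2%). Over all genes the medians levelled off from 52.6% GC upward. The splits are therefore not alike and do not separate kinds of list. The hypoxia-induced list did have an order, with a median of 2.20 for the 14 members of lower GC content and 4.19 for the 15 of higher GC content and a rank correlation of 0.44, but 12 and 15 of these were at least 2-fold higher and 0 lower on either side.

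**Figure D5:**
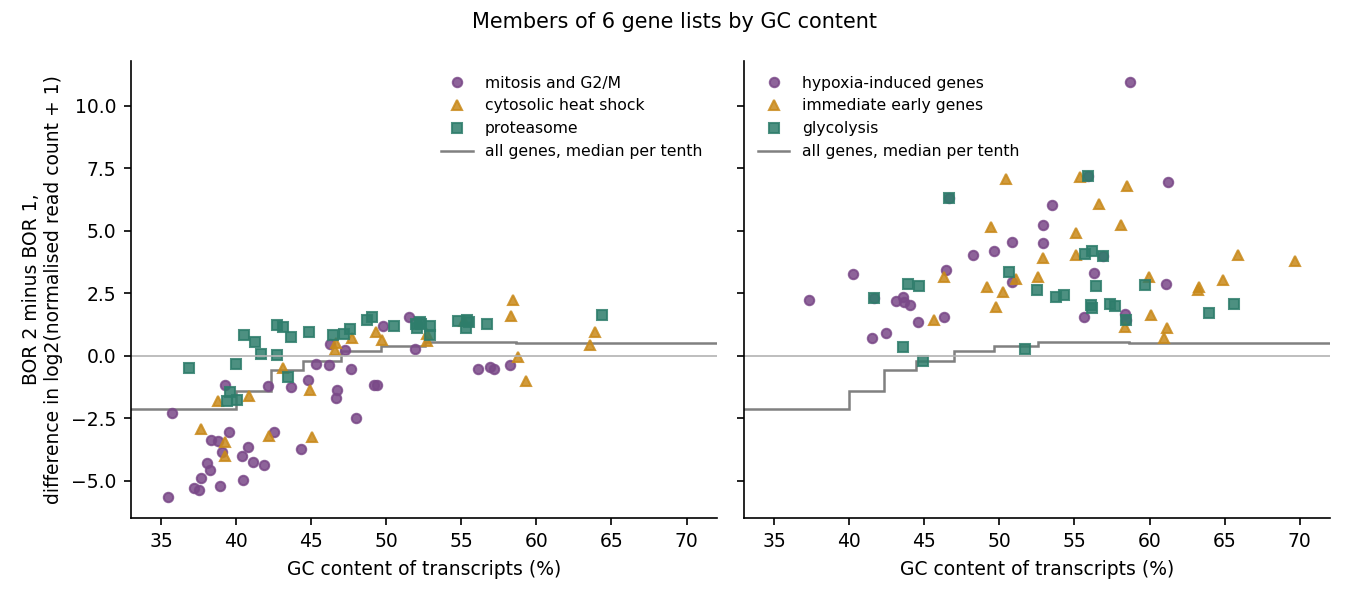
Difference between the BOR libraries (vertical axis, log2 scale) against GC content of transcripts (horizontal axis, %) for members of 6 lists, with the median of all genes in 10 GC groups as a grey step line; genes in several lists are drawn once per list. Mitosis, heat shock and proteasome members (left) climb with GC content, while hypoxia-induced, immediate early and glycolytic members (right) lie above the line at nearly every GC content.

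Long non-coding RNAs had a lower median difference than protein-coding genes, in the untreated pair as well (-0.16 against 0.04). The 1624 long non-coding genes had a median difference of -0.60, with 188 at least 2-fold higher and 610 lower, and the 12763 protein-coding genes had a median of 0.11. Their median GC contents, 49.9% and 49.6%, were close, and after removal of GC content and length the medians were -0.62 and 0.13. Their share of reads was 1.05% in BOR 1 and 0.695% in BOR 2. Against this trend, MIR210HG, the host transcript of the hypoxia-induced miR-210, was 54.5 and 49.5 in the untreated libraries, 43.9 in BOR 1 and 710.4 in BOR 2. LINC01671 was 9.36, 15.2, 5.37 and 841.0. DARS-AS1 (5.50) and VLDLR-AS1 (3.89) were also among the highest, but they overlap or adjoin coding genes and no strand information is stated, so reads of the partner cannot be told apart. The lowest were ANKRD10-IT1 (-4.11), LINC01410 (-3.88), FAM106A (-3.66) and OTUD6B-AS1 (-3.47). OTUD6B-AS1 lies beside OTUD6B, itself among the lowest coding genes at -5.37.

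Among genes of myeloid identity, those of the primary granules stood closer together than genes as a whole. Primary granule genes, made by myeloid progenitors, had a median of 0.03 (-0.58 with CPM and -0.06 with TMM scaling), with 2 of 13 at least 2-fold higher and 0 lower. MPO was 17926 and 14978 in the untreated libraries, 16667 in BOR 1 and 40522 in BOR 2, whereas PRTN3, named after its values were seen, was 45237, 52009, 53791 and 53089. Of 23 monocyte and granulocyte genes 7 were higher (30.4%) and 2 lower (8.70%), against 18.1% and 26.6% of all genes. Their median was 0.26 (-0.35 with CPM and -0.06 with GC content and length removed), but single members ran from -3.94 to 2.53. MNDA, a myeloid nuclear antigen gene of 36.4% GC, was 3399, 4240, 4627 and 300.4. A few genes were high in both BOR libraries. The lysozyme gene LYZ was 22.1 and 9.51 in the untreated libraries against 139.6 and 81.0 in BOR 1 and BOR 2, and the calprotectin gene S100A8 was 1422 and 2043 against 3522 and 4624. In both genes the BOR and untreated libraries did not overlap and the BOR libraries lay less than 2-fold apart. Both were chosen after their values were seen. How many of all genes separate in this way was not counted, and 2 libraries against 2 can separate by order alone. Over all genes, both BOR libraries lay 2-fold or more from the nearer untreated library on the same side in 54 (0.351%).

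HIPPO signalling, which the series title names, showed little common direction between the BOR libraries. Of 35 core components, kinases and adaptors that restrain the coactivator YAP, 4 were at least 2-fold higher in BOR 2 (11.4%) and 14 lower (40.0%). The shares over all genes were 18.1% and 26.6%. The median was -0.54 (-0.29 after removal of GC content and length), and -0.28 in the untreated pair. The lowest, MOB1B, was 726.9 and 502.1 in the untreated libraries, 885.2 in BOR 1 and 125.4 in BOR 2 and has 37.8% GC. STK3, the kinase MST2, was 354.9, 315.7, 397.4 and 60.1. The 17 members of lower GC content had a median of -1.61 and the 18 of higher GC content 0.12. Of 15 YAP/TEAD target genes 5 were higher (33.3%) and 1 lower (6.67%). Their median was 0.27 (-0.34 with CPM), and -0.14 in the untreated pair. CYR61 was 60.4, 78.0, 54.6 and 553.7.

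On the normalised scale, common reference genes did not stand still either. ACTB differed by 0.69, TBP by 0.67, B2M by 1.002 and GAPDH by 2.06 between the BOR libraries, against 0.18, 0.32, 0.04 and 0.53 between the untreated ones. ACTB was 56290 and 63820 in the untreated libraries, 52617 in BOR 1 and 85009 in BOR 2. In reads before normalisation, ACTB had 58784 in BOR 1 and 65096 in BOR 2, and TBP had 317 and 345. B2M had 42544 and 58400, and GAPDH 33320 and 95526, with library totals of 17694212 and 18507606. The value of 1 read was 0.895 in BOR 1 and 1.31 in BOR 2, and this factor makes up most of the ACTB and TBP differences.

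The VEM and VEM+BOR libraries, brought to this scale through the untreated libraries that the tables share, had these values. ADM was 7.08 in VEM and 14.0 in VEM+BOR, against 0.895 and 3702 in the BOR libraries, and PFKFB4 was 223.0 and 121.0. HMMR was 1242 and 1274. DDIT4 was 1687 and 1182, and EGR1 was 1170 and 654.8. CXCL8 was 7451 and 19053, PTGS2 284.9 and 401.5, and CCL3 556.5 and 638.1. FOS was 43.4 and 72.8, next to 42.6 and 42.8 in the untreated libraries. All tables share the untreated libraries, so these values are set side by side without a comparison.

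At the edge of the filter, the pseudogene PHBP9 was just inside with a mean of 10 and a difference of -1.02, and SLC4A9 was just outside, with a difference of -1.59.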

How the data were processed

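RNA was measured in 6 SKM-1 libraries, and the 4 of the table of BOR and untreated libraries were compared. Poly-T beads captured the mRNA and random hexamers primed it, per the labels' protocols. The submitters' processing notes name edgeR 3.22.5 and DESeq2 1.20.0, featureCounts 1.5.0-p3, HISAT2 2.0.5 and CASAVA without saying what each did. The authors deposited a normalised signal per gene and library. All values (100%) were whole multiples of the value of 1 read within 0.001, so reads were recovered. The authors' deposited log2 fold changes and p-values were not used. The sources used here name no genome build, but coordinates and symbols of 25405 of 25405 genes equal GENCODE 29 (GRCh38), from which GC content was taken over all transcripts of a gene.

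Groups came from the treatment labels. The members and lists were chosen with earlier results of these data known, and 2 hypoxia lists were added after the values were seen. No test was run, since 1 library stood against 1. Values were log2(value + 1) differences for genes with a mean of at least 10. Named genes were the 12 highest and 12 lowest protein-coding and 4 highest and 4 lowest long non-coding genes with a mean of at least 100 and BOR 2 outside the other 3 libraries, from each described list, the 4 or fewer members furthest apart that had a mean of at least 50, and 4 reference genes. Outside this rule, chosen after their values were seen, are ERO1A, LOX, VEGFA, INSIG2, P4HA1, SLC16A1, PFKM, LDHB, SRF, BIRC3, REL, SLC38A2, AURKB, PLK1, KIF2C, UBE2C, HSPA6, PRTN3, LYZ, S100A8 and SDC1. Alternatives were other pseudocounts, filters and scalings (TMM from edgeR 4.0.16 in R 4.3.3 on the recovered counts, and CPM), protein-coding genes only, and removal of GC content and length. The calculation was tested on simulated data. Depth was 17371022 to 18507606 reads, and intervals cover counting error only. Sequences are from RefSeq and GENCODE. VEM and VEM+BOR values were multiplied by 0.893 and 0.891. Python 3.11.15 with scipy 1.17.1 was used.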

Additional observations from a re-analysis of the deposited data

How the results depend on the processing

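No paired analysis was possible because the labels give the groups no shared replicate numbers and no result came from a test. Of the 15 list medians past 2-fold, all kept their direction under the alternatives of pseudocount, filter, scaling and GC content and length, and the 13 that could be computed on protein-coding genes only did so there; 8 stayed past 2-fold with CPM, 14 with TMM and 10 with GC content and length removed. Of 167 named genes past 2-fold, 153, 166 and 144 did. Only PSMC6 (-1.81 to 0.034) and MT-ATP8 (-1.12 to 0.49) changed sign, both with GC content and length removed. Genes higher in BOR 2 numbered 4308 with a mean of at least 1, 4970 with no filter and 1024 with CPM, and genes lower 6322 and 7046 for the filters. BOR 1 alone left the untreated range in 13 genes with a pseudocount of 10, in 6, 616 and 1031 with a mean of at least 50, at least 1 and no filter, and in 208 to 485 when 1 untreated library was left out, where BOR 2 alone did so in 5529 to 6864. The GC gradient of the BOR pair (top minus bottom group, 2.64) was 2.32 with a pseudocount of 10, 2.82, 2.33 and 1.88 with a mean of at least 50, at least 1 and no filter, 2.81 for protein-coding genes, and 1.51, 2.52 and 2.93 within classes of length. Chosen after seeing the data, coding GC gave 2.82, codon position 3 gave 2.80 and a mean of at least 1000 gave 2.44. That of the untreated pair (0.15) was 0.040 with no filter, -0.034 and -0.0079 among short and intermediate genes and 0.039 with codon position 3. The length gradient of the BOR pair (-0.95) was -1.41, -0.32 and -0.53 under these filters, -1.40 for protein-coding genes, -1.45, -0.52 and 0.066 within classes of GC content, and -0.38 by number of exons. The cause of these shifts was not tested. Genes of few reads limit precision: the interval of ADM, at 1 read in BOR 1, ran from 742-fold to 163426-fold. With 1 library on each side, differences between cultures and between library preparations cannot be told apart.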

Other observations

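Chromosomes differed in their median difference between the BOR libraries, in an order that only partly matched that of their GC content, and 4 of them are given here, chosen after their values were seen. Chromosome 13 had a median of -0.84 over 268 genes with a median GC content of 43.6%, and chromosome 4 had -0.50 over 528 genes at 43.9%. Chromosome 19, at 59.0% over 1108 genes, had 0.49, and chromosome 20, at 52.97% over 403 genes, had 0.43. With GC content and length removed, these medians were -0.12, 0.13, 0.12 and 0.16. In the untreated pair they were 0.01, -0.04, 0.11 and 0.12.

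Level went with the difference in both pairs. In the lowest of 10 equal groups by mean value the median was -0.42 in the BOR pair and -0.34 in the untreated pair, and in the highest 0.76 and 0.31. Over all 15382 genes the differences of the BOR pair and the untreated pair, which share no library, had a rank correlation of 0.26 across genes, which are not independent replicates.

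Interferon-stimulated genes split by base composition, as genes did over the whole comparison. Their median was -0.42, and -0.69 in the untreated pair. Of 27, 7 were at least 2-fold higher in BOR 2 (25.9%) and 10 lower (37.0%), against 18.1% and 26.6% of all genes. The 13 of lower GC content had a median of -2.50 and the 14 of higher GC content 0.51. IRF7, a factor of the interferon response, was 81.7 and 117.9 in the untreated libraries, 99.4 in BOR 1 and 974.2 in BOR 2, while the RNA sensor gene DDX58 was 145.5, 103.7, 120.8 and 11.7. BNIP3, a mitophagy receptor of the BCL2 list, was 1074, 1246, 1137 and 26498, and BCL2 family genes had a median of 0.996, with 8 of 17 higher and 0 lower. The splicing factor genes LUC7L3 and PNISR differed by -3.05 and -2.96 and the translation initiation gene EIF5B by -4.44, with GC contents of 41.8%, 37.7% and 39.6%.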
